A study of Mus musculus with 4 samples.

Results

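A set of 10 genes of bone morphogenetic protein (BMP) signalling were followed across the cells of the embryonic mouse head: the ligand genes Bmp4, Bmp6, Bmp7 and Gdf7, the homeobox genes Msx1 and Msx2, and Id1, Id2, Id3 and Id4. They were chosen by name, as the rows of these 10 genes among the 20719 genes in the deposited matrices, and all 10 were detected in every library. Single-cell RNA sequencing had been carried out with a droplet kit on samples titled embryonic brain, made from whole heads at E10.5, the embryo's age in days after mating. The series set 2 libraries labelled Apcdd1+/-, from embryos with 1 altered copy of the Wnt inhibitor gene Apcdd1, against 2 libraries labelled wild type (WT), with no treatment in either group. All heads shared an overnight hold in preservation solution, enzymatic dissociation and a DAPI sort against dead cells. The number of embryos pooled per library is not stated in the labels or files, so the 4 libraries are the units of the p-values below. Between classes, p-values reflect the spread left once the level of each library is taken out. Between labels, they reflect the spread between the 2 libraries of a label. Part of either spread may be technical.

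BMPs are secreted dimers of the TGF-beta family. They bind paired type I and type II serine/threonine kinase receptors, which phosphorylate SMAD1, SMAD5 and SMAD9, and these enter the nucleus with SMAD4. Msx genes and Id genes are textbook targets of that signal: MSX proteins are homeodomain repressors, and ID proteins bind basic helix-loop-helix (bHLH) factors such as the products of Tcf3, Tcf4 and Tcf12 and keep them off DNA. In the embryonic head, BMPs come from the roof plate, the strip of cells along the dorsal midline of the neural tube, and from the surface ectoderm beside it, and they pattern dorsal neural tissue and the facial mesenchyme.

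On the mouse build mm10 (GRCm38), with the GENCODE vM21 annotation, Bmp4 lies at chr14:46383520-46390669 on the minus strand, Bmp6 at chr13:38345107-38500302 on the plus strand, Bmp7 at chr2:172868012-172940321 on the minus strand and Gdf7 at chr12:8297918-8301954 on the minus strand. Msx1 lies at chr5:37820485-37824583 and Msx2 at chr13:53466884-53473074, both on the minus strand. Id1 lies at chr2:152736251-152737410, Id3 at chr4:136143497-136145755 and Id4 at chr13:48261228-48266026 on the plus strand, and Id2 at chr12:25093799-25097140 on the minus strand. The longest coding transcript has 7 exons in Bmp6 and Bmp7, 4 in Bmp4 and Id2, 3 in Id3 and Id4, 2 in Gdf7, Msx1 and Msx2, and 1 in Id1.

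RefSeq promoter windows (GRCm38.p6, 250 bases before to 50 bases after RefSeq's start of a transcript) were at hand for 8 of the 10 genes, all but Bmp7 and Id1. They were searched on both strands for the palindrome GGCGCC and the pentamer CAGAC, both known from SMAD-bound DNA, and for the E-boxes CACGTG and CAGCTG, the kind of site that bHLH dimers bind. GGCGCC stood in the windows of Id2 and Id4 and in 11.9% of all 32851 RefSeq promoter windows. CAGAC stood in those of Bmp6 and Id3 and in 49.6% of all windows. CACGTG stood in those of Bmp4 and Bmp6 and in 7.15% of all, and CAGCTG in that of Id2 and in 16.3% of all. Of the 4 motifs only CAGAC stood in windows of both a ligand gene and an Id gene. All matches are shown here, with the motif (or its reverse complement) in capitals and each line read 5′ to 3′ on the strand of the gene. The windows of Gdf7, Msx1 and Msx2 hold none of the 4 motifs.
Id2, chr12:25096308-25096333, minus strand: aggccccctgGGCGCCcagcgcacac
Id2, chr12:25096273-25096298, minus strand: tttgccacccCAGCTGggctctcgcc
Id4, chr13:48260958-48260983, plus strand: cgggttgcccGGCGCCccgccctcgc
Id3, chr4:136143645-136143669, plus strand: tcctcggcgtCAGACcagcctaagg
Id3, chr4:136143744-136143768, plus strand: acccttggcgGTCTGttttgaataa
Bmp6, chr13:38345581-38345609, plus strand: gggcagcgCACGTGtgCAGACtgcgagtg
Bmp4, chr14:46390842-46390867, minus strand: gtacctcttgCACGTGgtccccaggt
Counted from RefSeq's start, the Id2 matches begin 231 and 196 bases before it, the Id4 match 148, the Bmp4 match 188, and the Id3 matches 167 and 68, the last on the opposite strand. In Bmp6 the 2 motifs are 2 bases apart, 127 and 119 bases before RefSeq's start. GENCODE places the outermost start of Id2, Id3 and Bmp6 further upstream, so that the matches of these 3 genes lie inside the gene spans given above, while those of Id4 and Bmp4 lie upstream of them. A match is a run of letters and not a shown binding site.

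The 4 libraries held 25074 cells, of which 24259 were kept, with 55393605 to 96822641 unique molecular identifiers (UMIs) per library. The median of a kept cell was 9118 and 8934.5 UMIs in the libraries labelled Apcdd1+/- and 11506 and 17133.5 in those labelled WT. Between 6 and 25 cell barcodes were shared by a pair of libraries, with the barcode list of 1 library cut short. Apcdd1 itself did not separate the labels, at 77.4 and 49.5 counts per 1000000 (CPM) over all kept cells in Apcdd1+/- and 63.4 and 60.8 in WT. Cells were assigned by the number of class markers with a UMI, with none of the 10 genes among the markers: 264 roof plate-like cells (47 to 92 per library), 12629 progenitor-like, 2967 mesenchyme-like and 715 epithelium-like cells (126 to 287 per library). 4842 cells (20.0%) met no class. The markers of mesenchyme summed to 142 to 242 CPM in roof plate-like cells, against 28.0 to 32.4 in progenitor-like and 1624 to 1935 in mesenchyme-like cells. All 8 had a higher mean in roof plate-like than in progenitor-like cells: Col1a2 110 against 13.3 CPM, Prrx1 34.0 against 8.96, Pdgfra 13.1 against 1.74, Prrx2 10.4 against 3.55, Twist1 8.45 against 0.876, Col3a1 4.45 against 2.16, Twist2 0.921 against 0.284 and Col1a1 0.550 against 0.344. Col1a1, Col3a1 and Twist2 were at 0 in at least 1 roof plate library. The epithelial markers summed to 16.2 to 43.7 CPM there with 2 of 8 at 0, against 1930 to 2112 in epithelium-like cells. The part of these markers in the results below was not tested. Of roof plate-like cells, 16.3% met the gate with the least number of markers it asks for.

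Per-library values below are CPM of the UMIs summed over a class, in the order Apcdd1+/- replicate 1, Apcdd1+/- replicate 2, WT replicate 1, WT replicate 2, with mean ± SD over the 4 libraries. Classes were compared with edgeR's quasi-likelihood test on those sums, with the library as a block and Benjamini-Hochberg adjustment over all 12906 genes tested. A gene was called at an adjusted p under 0.05. Where libraries of 2 sets of cells are said not to overlap, the share of all genes that do so was not counted.

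The ligands, both Msx genes and Id1, Id2 and Id3 were higher in roof plate-like than in progenitor-like cells, and Id4 was lower. Against progenitor-like cells, 9 of the 10 genes were higher and 1, Id4, was lower, where 11.7% of all tested genes were called higher and 12.0% lower. Gdf7, counted as higher here and in the other roof plate comparisons, passed the filter on low counts only through its roof plate-like sums. The median log2 difference of the 10 was 3.10, beside -0.02 over all genes. Against mesenchyme-like cells 9 were higher and none was lower (18.9% and 21.8% of all genes), with a median of 0.94 beside -0.01. Against epithelium-like cells 7 were higher and 2, Bmp4 and Msx2, were lower (14.7% and 16.6% of all genes), with a median of 0.94 beside -0.02, also when Gdf7 is set at its lower bound.

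Mesenchyme-like cells had 5 higher and 2 lower than progenitor-like cells (28.9% and 28.5% of all genes), with a median of 0.37 beside -0.00495. Epithelium-like cells had 5 higher and 1 lower than progenitor-like cells (27.7% and 27.0%), with a median of 0.62 beside -0.01. Against mesenchyme-like cells they had 6 higher and 1 lower (26.8% and 26.2%), with a median of 0.65 beside 0.00305. The share of called genes that were higher rests on the scaling. With library size in place of edgeR's TMM factors it went from 49.4% to 64.2% for roof plate against progenitor, from 50.4% to 35.7% for mesenchyme against progenitor, from 46.5% to 68.3% for roof plate against mesenchyme and from 50.5% to 68.3% for epithelium against mesenchyme. The median of all genes moved to -0.11, 0.17 and 0.16 in the last 3 of these. Among the 10 genes only the uncalled difference of Msx1 between roof plate and mesenchyme turned its sign. Immediate early genes, which rise when cells are handled, moved with these contrasts too: against progenitor-like cells 1 of 8 was called higher in roof plate-like, 4 in mesenchyme-like and 5 in epithelium-like cells and none lower. Their part in the class differences was not tested.

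**Figure D1:**
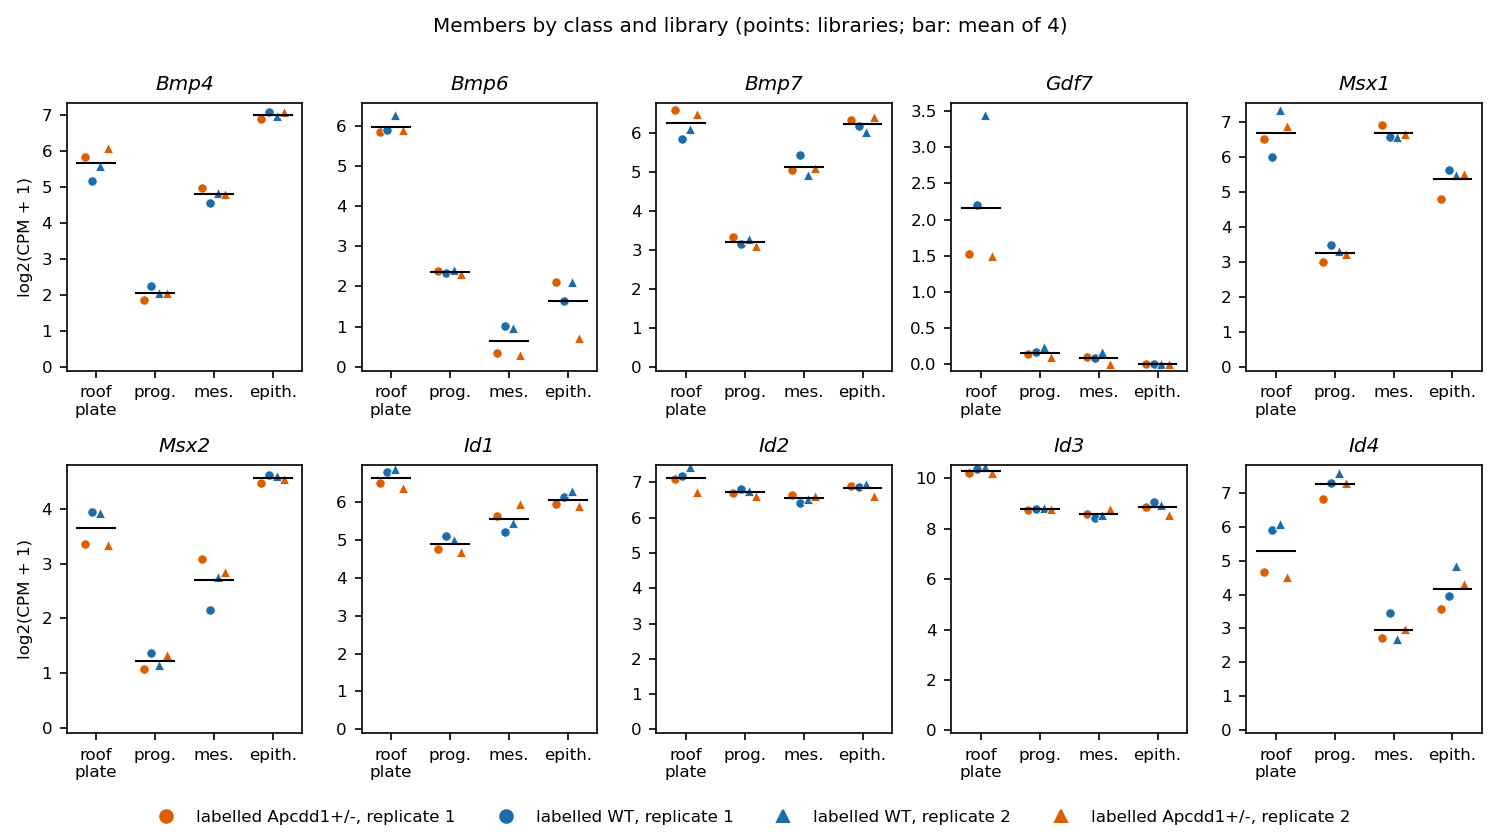
Level of each gene, as log2(CPM + 1) on the vertical axis, in roof plate-like, progenitor-like, mesenchyme-like and epithelium-like cells, with 1 point per library coloured by genotype label and a bar at the mean. Bmp6 and Id3 are highest in roof plate-like cells in all 4 libraries, Bmp4 and Msx2 in epithelium-like cells and Id4 in progenitor-like cells.

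Bmp4, a ligand of surface ectoderm, dorsal midline and facial tissue, was highest in epithelium-like cells. It was measured at 118, 134, 134 and 125 CPM there (128 ± 7.58, SD, n = 4). Roof plate-like cells had 55.9, 67.4, 35.2 and 47.3 CPM (51.5 ± 13.6). Mesenchyme-like cells had 30.7, 27.1, 22.6 and 27.4 CPM (27.0 ± 3.30). Progenitor-like cells were far below all 3, at 2.63 to 3.80 CPM (3.19 ± 0.48), and no 2 of the 4 classes overlapped. The log2 difference between roof plate and progenitor was 3.89 (SE 0.20, edgeR adjusted p = 1.7e-16), and that between epithelium and progenitor was 5.27 (SE 0.12, edgeR adjusted p = 1.1e-27). Each step in the order passed the test: roof plate lay below epithelium (log2 difference -1.38, SE 0.14) and above mesenchyme (0.70, SE 0.16, edgeR adjusted p = 5.4e-04).

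Bmp6, a ligand of the 60A subgroup with Bmp5 and Bmp7, was concentrated in roof plate-like cells. Its 4 libraries gave 55.9, 58.3, 58.6 and 75.9 CPM (62.2 ± 9.24). Progenitor-like cells had 4.21, 3.96, 4.07 and 4.30 CPM (4.14 ± 0.15). In epithelium-like cells it was at 0.65 to 3.32 CPM (2.34 ± 1.27), and in mesenchyme-like cells 31 UMIs in all gave 0.23 to 1.02 CPM (0.62 ± 0.43). The roof plate-like cells lay above every library of the other classes. The log2 difference was 3.81 against progenitor (SE 0.21, edgeR adjusted p = 1.1e-15), 6.40 against mesenchyme (SE 0.28) and 4.56 against epithelium (SE 0.30). Mesenchyme lay below progenitor (log2 difference -2.59, SE 0.28, edgeR adjusted p = 1.6e-09), while epithelium against progenitor missed it (-0.75, 95% interval -1.44 to -0.07, edgeR adjusted p = 0.0574) although their libraries did not overlap. Epithelium against mesenchyme, called at a log2 difference of 1.83 (edgeR adjusted p = 0.00134), was lost without Apcdd1+/- replicate 1 (edgeR adjusted p = 0.0590). Roof plate-like cells were 1.09% of the kept cells with 1.25% of their UMIs, and they held 19.2% of the 1174 Bmp6 UMIs.

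Bmp7, which can pair with BMP2 or BMP4 in heterodimers, was shared by roof plate and epithelium. Roof plate-like cells had 96.0, 89.2, 56.8 and 68.2 CPM (77.6 ± 18.2) and epithelium-like cells 80.4, 84.0, 71.1 and 64.5 (75.0 ± 8.85). Mesenchyme-like cells had 32.4, 33.1, 41.9 and 29.4 CPM (34.2 ± 5.38), and progenitor-like cells 7.53 to 9.09 (8.33 ± 0.73). The first 2 classes overlapped and their log2 difference was 0.01 (95% interval -0.29 to 0.32, edgeR adjusted p = 0.956), while the other steps down did not overlap. Roof plate gave a log2 difference of 3.12 from progenitor (SE 0.16, edgeR adjusted p = 4.3e-16) and of 0.96 from mesenchyme (SE 0.15, edgeR adjusted p = 2.2e-06).

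Gdf7, known as a roof plate ligand that acts on dorsal interneurons, was scarce in these libraries, with 43 UMIs in all kept cells, 37.2% of them in roof plate-like cells. There the libraries held 2, 1, 4 and 9 UMIs, or 1.86, 1.82, 3.61 and 9.91 CPM (4.30 ± 3.83). The 17 UMIs in progenitor-like cells gave 0.06 to 0.17 CPM, 3 UMIs were seen in mesenchyme-like cells, and epithelium-like cells had 0. Every roof plate library lay above every library of the other classes. The log2 difference was 4.96 against progenitor (SE 0.65) and 5.64 against mesenchyme (SE 0.78). Gdf7 passed the filter on low counts only through its roof plate-like sums. Its calls in these comparisons are therefore no support of their own. Against epithelium the level was at least 14.6-fold higher, from a floor of 3 counts over that group's 4 libraries.

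**Figure D2:**
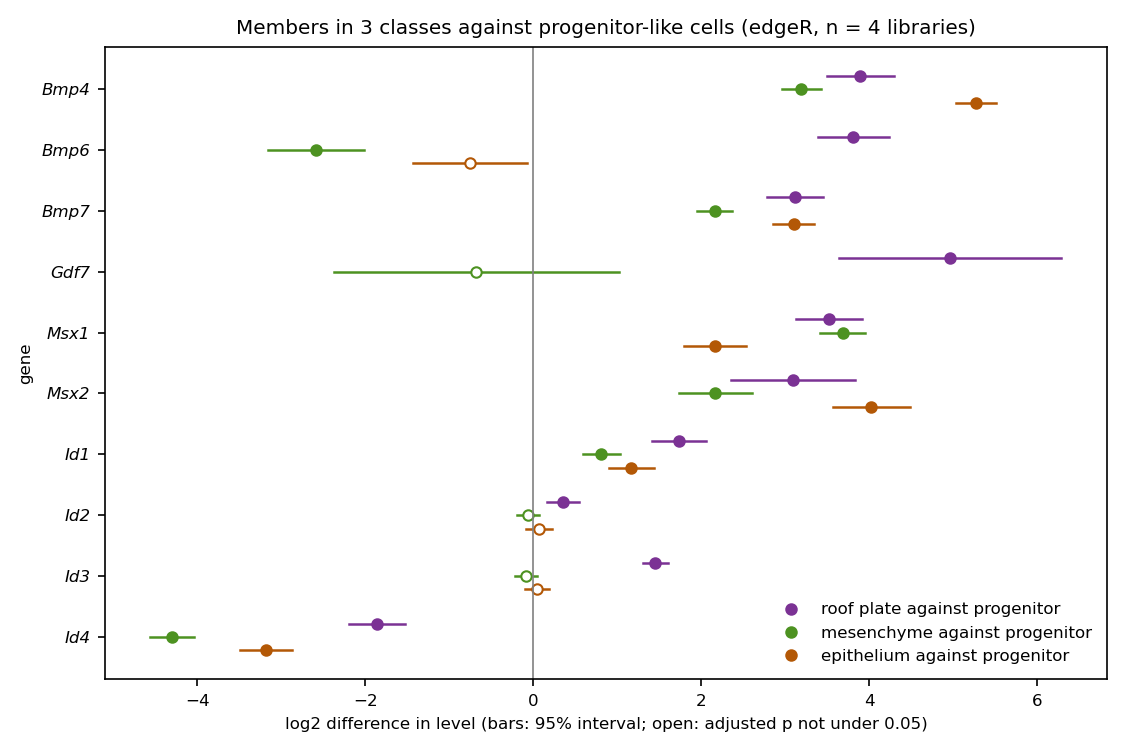
Log2 difference of each gene between pairs of classes, with bars for the 95% interval, for roof plate, mesenchyme and epithelium each against progenitor, with open points where the adjusted p was not under 0.05 and no point for Gdf7 in epithelium. For roof plate the 4 ligands and both Msx genes lie between 3.09 and 4.96, Id2 lies closest to 0 at 0.36, and Id4 lies to the left of 0 in all 3 comparisons.

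Msx1 was high in roof plate-like and mesenchyme-like cells alike. Roof plate-like cells had 90.4, 117, 62.2 and 158 CPM (107 ± 40.9), and mesenchyme-like cells 118, 99.9, 94.2 and 93.5 (101 ± 11.6). Epithelium-like cells had 26.6, 44.6, 48.5 and 44.0 CPM (40.9 ± 9.75), and progenitor-like cells 7.01 to 10.1 (8.60 ± 1.28). The first 2 classes overlapped, with a log2 difference of -0.16 (95% interval -0.49 to 0.17, edgeR adjusted p = 0.464). Without WT replicate 2, which has the highest roof plate value, that difference was called at -0.47 (edgeR adjusted p = 0.0358). With gates set on cells thinned to 3000 UMIs it was called at -0.97 (edgeR adjusted p = 0.00836). Above progenitor the log2 difference was 3.52 for roof plate (SE 0.19, edgeR adjusted p = 1.4e-15), 3.68 for mesenchyme (SE 0.13) and 2.16 for epithelium (SE 0.18). Mesenchyme-like cells held 61.0% of all Msx1 UMIs with 16.6% of all UMIs.

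Msx2 followed another order, with epithelium first. It was at 21.4, 22.6, 23.8 and 23.4 CPM in epithelium-like cells (22.8 ± 1.06) and at 9.32, 9.11, 14.4 and 14.3 in roof plate-like cells (11.8 ± 2.98). Mesenchyme-like cells had 7.48, 6.19, 3.43 and 5.79 CPM (5.72 ± 1.69), and progenitor-like cells 1.10 to 1.59 (1.35 ± 0.24). No 2 classes overlapped. Roof plate against progenitor gave a log2 difference of 3.09 (SE 0.36, edgeR adjusted p = 6.0e-08) and epithelium against mesenchyme 1.85 (SE 0.21, edgeR adjusted p = 6.9e-09). The step from roof plate to mesenchyme, 0.92 (SE 0.32, edgeR adjusted p = 0.0204), was lost without WT replicate 1 (0.57, edgeR adjusted p = 0.223) and without WT replicate 2 (edgeR adjusted p = 0.0926). The step from roof plate up to epithelium (log2 difference -0.93, edgeR adjusted p = 0.0153) was lost without Apcdd1+/- replicate 1 (edgeR adjusted p = 0.0652).

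Among the Id genes, Id3 was higher in roof plate-like cells than in each other class. It was at 1169, 1167, 1332 and 1378 CPM there (1262 ± 109). Progenitor-like cells had 422, 440, 437 and 451 CPM (438 ± 11.8), mesenchyme-like cells 344 to 437 (383 ± 39.3) and epithelium-like cells 376 to 526 (466 ± 63.8). All 4 roof plate values were above all 12 values of the other classes, which overlapped each other. The log2 difference of roof plate was 1.45 against progenitor (SE 0.07, edgeR adjusted p = 1.1e-16), 1.54 against mesenchyme (SE 0.07) and 1.41 against epithelium (SE 0.08). The other classes against each other missed the threshold: the log2 difference was -0.09 for mesenchyme against progenitor (95% interval -0.22 to 0.05), 0.04 for epithelium against progenitor (-0.10 to 0.19) and 0.13 for epithelium against mesenchyme (-0.01 to 0.28). Without Apcdd1+/- replicate 2 all 3 were called, at -0.14, 0.14 and 0.28 (edgeR adjusted p = 0.0251, 0.0416 and 1.4e-04), and with library size alone the first and the last were, at -0.19 and 0.29 (edgeR adjusted p = 0.0110 and 7.7e-04).

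Id1 fell in steps from roof plate to progenitor. Roof plate-like cells had 89.5, 82.0, 110 and 117 CPM (99.5 ± 16.5) and epithelium-like cells 61.3, 58.8, 69.4 and 77.3 (66.7 ± 8.39). Mesenchyme-like cells had 49.1, 60.8, 35.8 and 42.8 CPM (47.1 ± 10.6), and progenitor-like cells 26.1, 24.6, 33.4 and 31.3 (28.8 ± 4.21). Roof plate and progenitor each stood clear of the other classes taken whole, while epithelium and mesenchyme overlapped. The mesenchyme-like cells with Dlx genes, described below, were at 108 ± 26.0 CPM and overlapped roof plate. The log2 difference between roof plate and progenitor was 1.74 (SE 0.16, edgeR adjusted p = 2.7e-10) and that between roof plate and epithelium 0.57 (SE 0.17, edgeR adjusted p = 0.00839). Epithelium against mesenchyme, 0.36 (SE 0.13, edgeR adjusted p = 0.0225), was lost without WT replicate 1 and without WT replicate 2 (edgeR adjusted p = 0.156 and 0.200) and under DESeq2 (adjusted p = 0.0790).

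Id2 was nearly level across the classes. It was at 134, 106, 143 and 173 CPM in roof plate-like cells (139 ± 27.7), 96.9 to 111 in progenitor-like (104 ± 5.99), 84.4 to 98.7 in mesenchyme-like (92.8 ± 6.40) and 96.9 to 123 in epithelium-like cells (113 ± 11.4). Roof plate overlapped progenitor and epithelium but not mesenchyme. Its log2 difference from progenitor was 0.36 (SE 0.09, edgeR adjusted p = 0.00427), and without WT replicate 2, the highest library, it was 0.26 and no longer called (edgeR adjusted p = 0.0877). Against epithelium it was 0.29 (edgeR adjusted p = 0.0289) and was lost without Apcdd1+/- replicate 1, WT replicate 1 or WT replicate 2 (edgeR adjusted p = 0.0531, 0.109 and 0.138). Mesenchyme and epithelium against progenitor missed the threshold, with 95% intervals of -0.20 to 0.07 and -0.09 to 0.22 on the log2 scale, and with library size alone mesenchyme was called lower (-0.17, edgeR adjusted p = 0.0306). Epithelium against mesenchyme missed it as well (0.13) and was called without Apcdd1+/- replicate 2 (0.21, edgeR adjusted p = 0.0279) and with library size alone (0.29, edgeR adjusted p = 0.00307).

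Id4, which marks dividing neural progenitors, went the other way. Progenitor-like cells had 114, 158, 157 and 192 CPM (155 ± 32.2) and roof plate-like cells 24.2, 21.9, 59.5 and 67.1 (43.2 ± 23.5). Epithelium-like cells had 10.9 to 27.5 CPM (17.9 ± 7.13) and mesenchyme-like cells 5.44 to 9.87 (6.95 ± 2.05). Progenitor lay clear above all others, mesenchyme clear below, and roof plate and epithelium overlapped. The log2 difference from progenitor was -1.86 for roof plate (SE 0.16, edgeR adjusted p = 1.1e-10), -3.18 for epithelium (SE 0.15) and -4.30 for mesenchyme (SE 0.13). Progenitor-like cells, 52.1% of the kept cells, held 81.9% of all Id4 UMIs.

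The share of cells with at least 1 UMI showed how widely each gene was found within a class. Beside it stands the share in erythroid-like cells (124 cells, median 19593.5 UMIs) and macrophage-like cells (179 cells, median 17277 UMIs), taken as the level that free RNA could give. Median depth was 11977 UMIs in roof plate-like, 10823 in progenitor-like, 14518 in mesenchyme-like and 11934 in epithelium-like cells. Bmp6 was found in 45.8% of roof plate-like cells, 3.85% of progenitor-like, 2.66% of epithelium-like and 0.708% of mesenchyme-like cells, against 0.806% and 1.68% in erythroid-like and macrophage-like cells. The mesenchyme share thus lay at the background. Bmp4 was found in 27.3% of roof plate-like and 45.5% of epithelium-like cells, with a background of 0.806% and 0 of 179 cells, which allows a share of up to 1.68%. Bmp7 was found in 51.9% and 51.3% of the same classes, with a background of 0.806% and 2.23%.

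Among the targets Msx1 was found in 40.9% of roof plate-like and 42.9% of mesenchyme-like cells but in 5.34% of progenitor-like cells, with a background of 0.806% and 1.12%. Msx2 was found in 11.4% of roof plate-like and 20.4% of epithelium-like cells and in no background cell, 0 of 124 and 0 of 179, which allows shares of up to 2.42% and 1.68%. Id3 was found in 95.8% of roof plate-like, 74.4% of progenitor-like, 85.1% of mesenchyme-like and 82.9% of epithelium-like cells, with a background of 9.68% and 9.50%. Id4 was found in 48.3% of progenitor-like and 23.1% of roof plate-like cells, with a background of 2.42% and 3.91%. With every cell thinned to 5000 UMIs, which left out 18 roof plate-like, 1330 progenitor-like, 194 mesenchyme-like and 85 epithelium-like cells, Bmp6 was found in 24.8% of roof plate-like and 1.90% of progenitor-like cells, Msx1 in 31.3% and 3.07%, and Id3 in 91.5% and 62.0%. Id4 was then found in 14.2% and 36.1%.

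A UMI of at least 1 of the 4 ligands was found in 203 of 264 roof plate-like cells (76.9%), 506 of 715 epithelium-like cells (70.8%), 1167 of 2967 mesenchyme-like cells (39.3%) and 1416 of 12629 progenitor-like cells (11.2%). Bmp4, Bmp6 and Bmp7 together were found in 34 roof plate-like cells, against 9 epithelium-like, 5 mesenchyme-like and 18 progenitor-like cells. Msx1 or Msx2 was found in 45.1% of roof plate-like, 43.5% of mesenchyme-like, 34.0% of epithelium-like and 5.96% of progenitor-like cells. These counts are of unthinned cells and carry no test.

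The roof plate-like cells were not uniform. They were described apart by a UMI of Emx2 or Dmrt3, genes of the dorsal forebrain, a division chosen after the values were seen and given with no test. The 146 cells with one of them had 757 CPM of Wnt8b and 2 UMIs of Wnt1 in all, and the 118 without had 103 CPM of Wnt8b and 96.3 CPM of Wnt1, the ligand of the more posterior dorsal midline. Bmp4 was at 72.6, 88.0, 50.9 and 98.4 CPM in the cells with Emx2 or Dmrt3 and at 37.4, 30.5, 7.46 and 2.08 in those without. The former were 48, 30, 47 and 21 cells with 150 Bmp4 UMIs in all, and the latter 44, 19, 29 and 26 cells with 29. Msx1 ran the other way, at 49.5, 34.1, 14.2 and 53.9 CPM against 136, 264, 147 and 251. In both genes the libraries of the 2 sets did not overlap.

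Id1 and Id2 lay with Msx1 on that divide. Id1 was at 63.7, 45.4, 79.2 and 77.3 CPM with Emx2 or Dmrt3 and at 118, 147, 164 and 152 without, and Id2 at 92.0, 53.9, 93.4 and 70.3 against 181, 198, 231 and 264. Msx2 was at 5.36 CPM against 20.8 over the pooled libraries, and Gdf7 had 1 UMI against 15. Bmp6 and Bmp7 were close between the 2 sets, at 59.5 and 65.5 CPM and at 74.6 and 78.1 CPM pooled. Id3 was higher with Emx2 or Dmrt3 in all 4 libraries, at 1179, 1192, 1602 and 1663 CPM against 1159, 1123, 858 and 1125. Bmp4 and Id3 were thus higher in the one set, and Gdf7, Msx1, Msx2, Id1 and Id2 in the other.

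**Figure D3:**
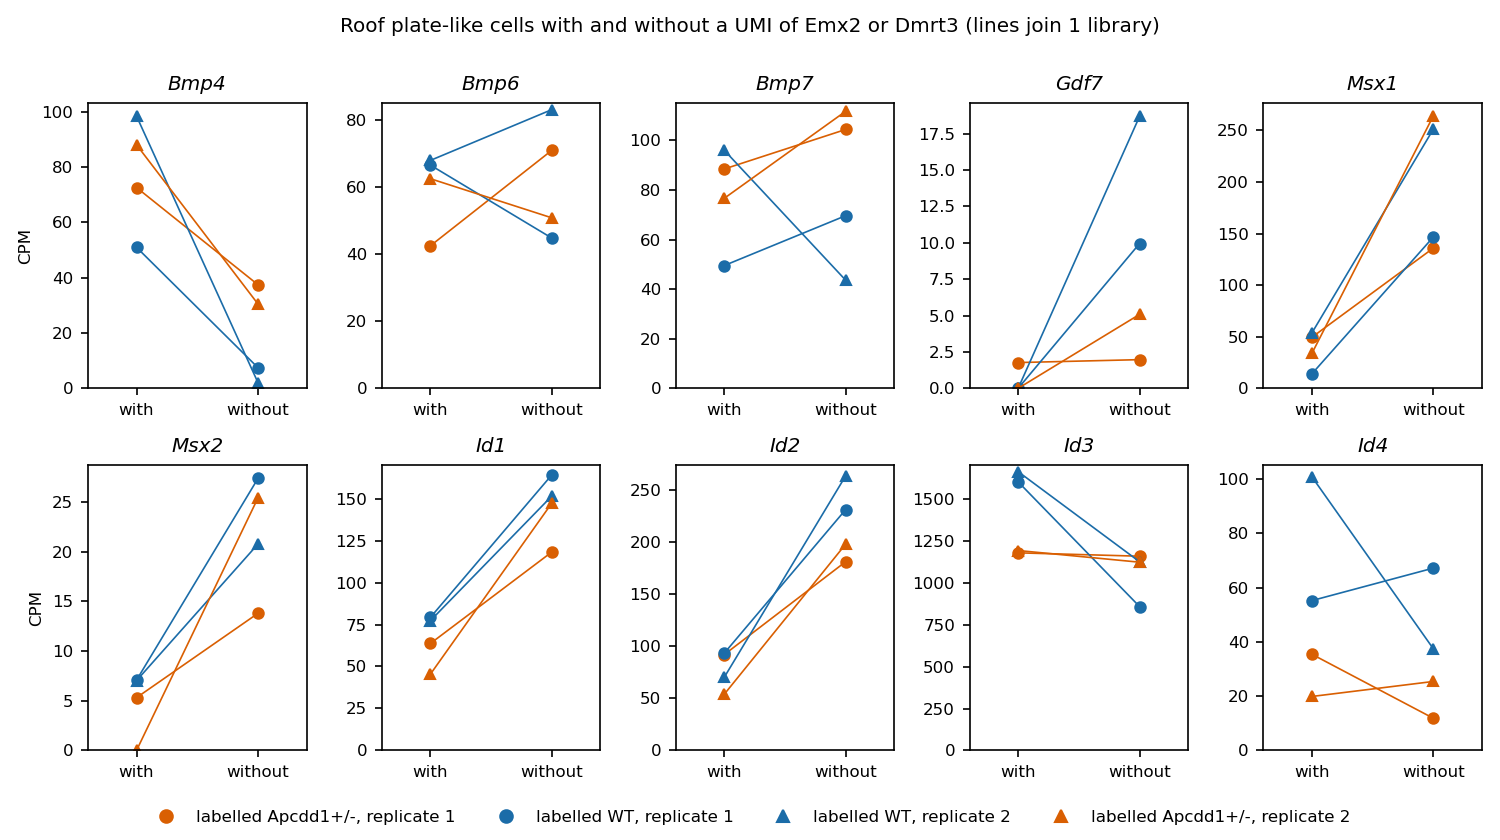
CPM of the 10 genes on linear axes from 0, in roof plate-like cells with and without a UMI of Emx2 or Dmrt3, with 1 point per library in each set, coloured by genotype label, and a line joining the points of a library. Bmp4 is higher in the 146 cells with one of them, and Msx1, Id1 and Id2 are higher in the 118 cells without, in each of the 4 libraries.

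Within progenitor-like cells the targets followed the dorsal side. Cells with dorsal markers (4672 cells; Pax3, Pax7, Olig3, Zic1, Zic4, Emx2) were set against cells with ventral markers (1187 cells; Nkx2-1, Nkx2-2, Nkx6-1, Nkx6-2, Foxa2, Shh). Of 9 genes tested, 7 were higher in dorsal cells and none was lower, where 6.57% and 7.17% of 11927 genes were called, and the median log2 difference was 0.94 beside 0.000576 over all genes. With library size alone the share of called genes that were higher went from 47.8% to 36%. Msx1 was at 14.9, 17.3, 19.5 and 17.5 CPM dorsally and at 0.83, 0.81, 1.48 and 0.77 ventrally, a log2 difference of 4.17 (SE 0.44, edgeR adjusted p = 2.4e-09). Msx2 had 180 UMIs dorsally and 0 ventrally, at least 13.7-fold higher from a floor of 3 counts over the ventral libraries. The 2 sides did not overlap in either gene.

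Id1, Id2 and Id3 were also higher dorsally in every library. Id1 was at 38.7, 38.4, 50.1 and 45.7 CPM against 21.6, 26.4, 22.6 and 21.2 (log2 difference 0.98, SE 0.16, edgeR adjusted p = 1.8e-05). Id3 was at 560 ± 35.9 against 361 ± 15.6 CPM (0.67, SE 0.07, edgeR adjusted p = 2.6e-09) and Id2 at 128 ± 8.59 against 83.9 ± 5.30 CPM (0.64, SE 0.08, edgeR adjusted p = 4.1e-08). Id4, at 119 ± 32.3 and 139 ± 24.3 CPM, and Bmp4, at 3.21 ± 1.39 and 1.79 ± 1.05 CPM, missed the threshold. Bmp6 (5.74 against 3.13 CPM, log2 difference 0.94, edgeR adjusted p = 0.0376) and Bmp7 (9.64 against 5.58 CPM, 0.83, edgeR adjusted p = 0.0123) passed it with no overlap. The Bmp6 call was lost without Apcdd1+/- replicate 1, WT replicate 1 or Apcdd1+/- replicate 2 (edgeR adjusted p = 0.236, 0.0968 and 0.135), and the Bmp7 call without WT replicate 2 (0.143). Both were lost under DESeq2 (adjusted p = 0.127 and 0.0560) and with a gate lead of more than 2 times (edgeR adjusted p = 0.263 and 0.0704). Gdf7, with 13 UMIs dorsally and 0 ventrally, was too sparse to test.

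Mesenchyme-like cells divided by their Alx and Dlx genes, which mark frontonasal and pharyngeal arch mesenchyme, differed in ligands and Id genes in opposite directions. The 1822 cells with Alx genes had 2 of the 9 tested genes higher and 3 lower than the 238 cells with Dlx genes, where 6.89% and 4.94% of all genes were called. Bmp7 was at 32.8, 38.8, 45.0 and 38.9 CPM in Alx cells and at 2.86, 8.75, 0.91 and 1.11 in Dlx cells (log2 difference 3.56, SE 0.36, edgeR adjusted p = 1.7e-09). Bmp4 was at 25.4 ± 2.98 and 7.19 ± 4.82 CPM (1.80, SE 0.35, edgeR adjusted p = 2.9e-04). Id1 was at 35.2, 43.1, 30.4 and 36.4 CPM in Alx cells and at 132, 123, 103 and 73.3 in Dlx cells (log2 difference -1.63, SE 0.17, edgeR adjusted p = 2.6e-09). Id2 and Id3 were lower in Alx cells by -0.70 and -0.53 on the log2 scale (SE 0.10 and 0.08). None of these 5 genes overlapped between Alx and Dlx cells, with the share over all genes not counted.

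The 819 mesenchyme-like cells with neither set gave the same 5 calls against Dlx cells, 2 higher and 3 lower, where 17.7% and 18.3% of all genes were called. Their Bmp4 was at 42.8 ± 7.88 CPM (log2 difference 2.40, SE 0.34), Bmp7 at 38.7 ± 9.67 (3.44, SE 0.38), Id1 at 42.2 ± 21.0 (-1.59, SE 0.19), Id2 at 84.5 ± 8.33 (-0.82, SE 0.11) and Id3 at 355 ± 70.7 (-0.71, SE 0.08). Id3 alone of these overlapped. Against them Alx cells had 1 gene lower, Bmp4 (-0.60, edgeR adjusted p = 0.0107), and none higher, where 17.3% and 16.3% of all genes were called higher and lower. This call was lost without Apcdd1+/- replicate 1 or replicate 2 (edgeR adjusted p = 0.0627 and 0.0700). With library size alone the share of called genes that were higher went from 49.1% to 70.4% for other against Dlx cells and from 51.5% to 24.7% for Alx against other cells, with the median of all genes at 0.18 and -0.16.

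**Figure D4:**
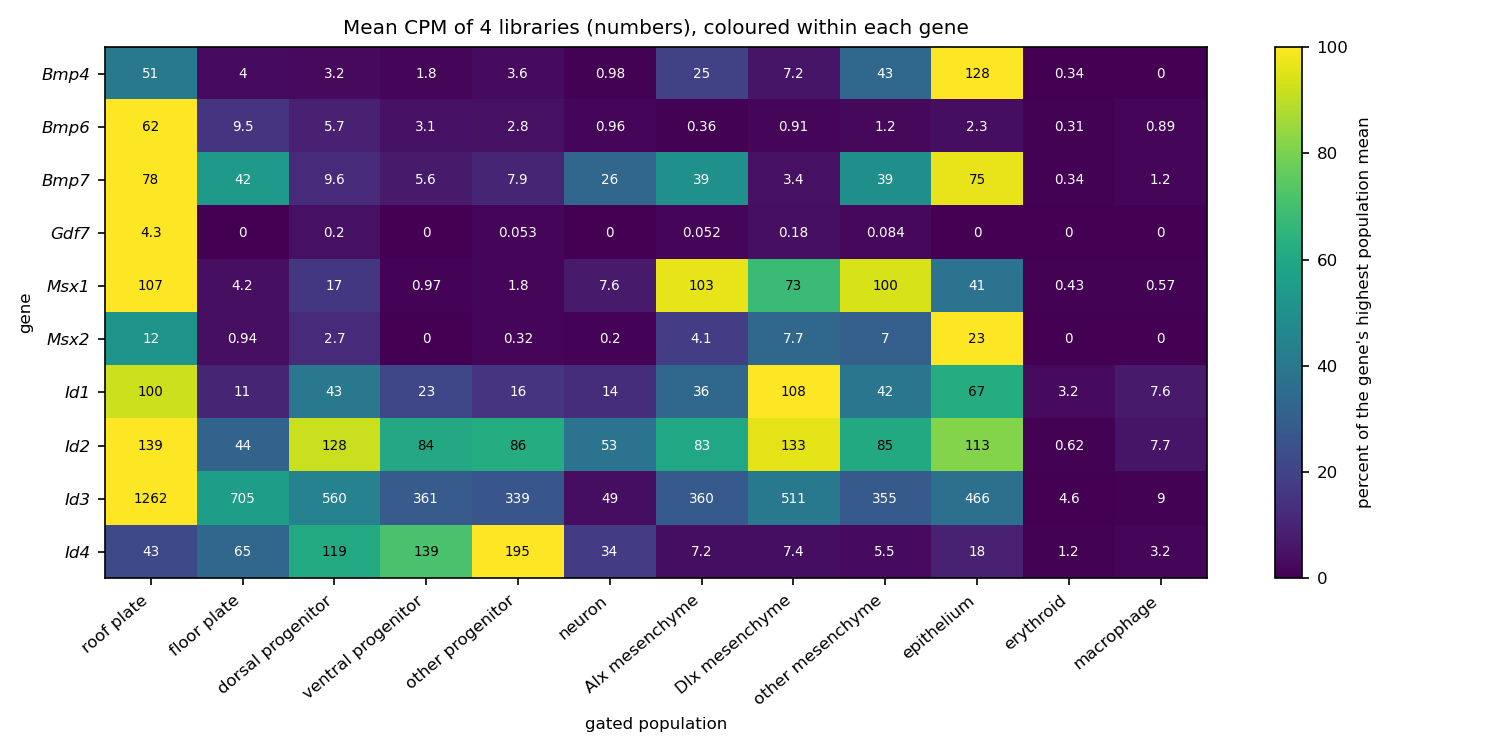
Mean CPM of the 4 libraries, printed in each cell, for the 10 genes (rows) in 12 gated populations (columns), coloured as a percent of the highest mean of that gene. Of the neural, mesenchymal and epithelial populations Id3 is lowest in neurons, at 49.1 CPM, and Gdf7 stays at or below 0.197 CPM outside roof plate-like cells.

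Outside these classes, floor plate-like cells (599 cells) had Bmp7 at 60.1, 28.4, 46.3 and 32.3 CPM (41.8 ± 14.5) and Id3 at 705 ± 61.3. Their Id1 was at 11.2 ± 3.50 CPM, Msx1 at 4.23 ± 1.02 and Gdf7 at 0 UMIs. Neuron-like cells (1633 cells) had Id3 at 49.1 ± 22.2, Id2 at 53.1 ± 9.32 and Bmp7 at 25.5 ± 4.34 CPM. Over the 12 populations with at least 20 cells in each library, genes most like each member were found by Pearson's r of log2(CPM + 1). For the ligands they were Cgnl1, Rdh10 and Pcdh7 for Bmp4 (0.97, 0.96 and 0.95), Znhit2, Glis3 and Dhx32 for Bmp6 (0.93, 0.88 and 0.87), Dkk3, Dstyk and Pef1 for Bmp7 (0.94, 0.94 and 0.93) and Cenpw and Trpm3 for Gdf7 (0.89 and 0.81). For the Msx genes they were Ror1, Nfatc4 and Kif26b for Msx1 (0.95, 0.94 and 0.93) and Stk26, Edn3 and Bmp4 for Msx2 (0.95, 0.93 and 0.92). For the Id genes they were Pwwp3b, Gas1 and Mecom for Id1 (0.93, 0.93 and 0.92), Tmem201 and Zfp521 for Id2 (both 0.98), Tango6, Daxx and Smo for Id3 (0.98), and Itgb8, Trim37 and D030056L22Rik for Id4 (0.96, 0.95 and 0.95). Within the 10 genes r was highest for Bmp4 with Msx2 (0.92), Id2 with Id3 (0.91) and Msx1 with Msx2 (0.89), and it was -0.14 for Msx1 with Id4. These are descriptions over 12 points that share 4 libraries. The points include erythroid-like and macrophage-like cells, where Id2 was at 0.620 and 7.75 CPM and Id3 at 4.61 and 9.04. Outside roof plate-like cells Gdf7 was at or below 0.197 CPM.

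The rest of the pathway was counted list by list in roof plate-like against progenitor-like cells, where 11.7% of all genes were called higher and 12.0% lower. Of the other ligand genes, 4 of 7 could be tested and 1 was called: Bmp5, at 10.3, 14.6, 20.7 and 20.9 CPM against 1.93, 1.30, 1.73 and 1.48 (log2 difference 3.28, SE 0.33, edgeR adjusted p = 2.9e-09). Of 6 receptor genes 1 was higher, the type I receptor Bmpr1a (0.29, SE 0.11, edgeR adjusted p = 0.0479), and 1 was lower, the type I receptor Bmpr1b (-1.15, SE 0.24, edgeR adjusted p = 4.1e-04). Of 3 SMAD genes tested none was called, with Smad4, the shared partner, at 0.16 (edgeR adjusted p = 0.230). The list medians were 1.38, -0.02 and 0.16, beside the -0.02 of all genes.

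Inhibitors act outside and inside the cell. Of 6 extracellular antagonists and modulators tested, 5 were higher in roof plate-like than in progenitor-like cells and 1 was lower (median 1.67). Grem1, which binds and blocks BMPs, differed by 3.19 (SE 0.37) and Bmper by 3.07 (SE 0.33), while the activin and BMP binder Fst differed by -2.24 (SE 0.34) on the log2 scale. Of 5 feedback inhibitors 3 were higher and none lower (median 0.83): the pseudoreceptor Bambi by 2.71 (SE 0.29, edgeR adjusted p = 1.2e-08), and the inhibitory SMADs Smad6 by 1.21 (edgeR adjusted p = 0.0207) and Smad7 by 0.83 (edgeR adjusted p = 0.0416). Of 6 other target genes 2 were called higher, Tfap2a (2.32, SE 0.81, edgeR adjusted p = 0.0343) and Atoh8 (1.04, SE 0.28), and 1 was lower, Msx3 (-2.53, SE 0.32, edgeR adjusted p = 1.8e-07), the Msx gene of the dorsal neural tube outside the roof plate. Tfap2a was at 0 in both Apcdd1+/- libraries of roof plate-like cells and at 4.51 and 2.20 CPM in the WT libraries, against 0.42, 0.16, 0.39 and 0.41 CPM in progenitor-like cells, so that the call rests on the WT libraries. Of the 3 bHLH partners of ID proteins Tcf4 was higher (0.37) and Tcf3 lower (-0.18). With 1 library left out, the calls were lost for Bmpr1a (0.26, 0.23 and 0.28 without Apcdd1+/- replicate 1, WT replicate 1 and WT replicate 2), Smad6 (0.99, 1.18 and 1.09 without Apcdd1+/- replicate 1, WT replicate 1 and Apcdd1+/- replicate 2), Smad7 (0.73 to 0.90 without any 1 of the 4), Tfap2a (1.09 and 2.29 without WT replicate 1 and WT replicate 2) and Tcf3 (-0.18, -0.15 and -0.16 without Apcdd1+/- replicate 1, WT replicate 1 and Apcdd1+/- replicate 2).

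In mesenchyme-like against progenitor-like cells, where 28.9% of all genes were called higher and 28.5% lower, 4 of 5 feedback inhibitors were higher, among them Bambi (log2 difference 1.98), Smad7 (0.89) and Smad6 (0.71), and 1 of 6 antagonists was higher and 4 lower, among them Nog (-2.63, SE 0.28), Fst (-2.51, SE 0.16) and Chrdl1 (-2.10, SE 0.23). Other ligand genes were higher in 3 of 4, Gdf6 (2.45), Bmp5 (2.30) and Bmp2 (1.56), and 1 was lower. Receptors split 2 and 2, with Bmpr2 at 0.40 and Acvr2a at -0.40. Other targets split 4 and 2, with Gata2 at 4.92 and Msx3 at -4.96, and all 3 bHLH partners were higher by 0.12 to 0.48. The smallest of these, Tcf3, was lost without Apcdd1+/- replicate 1 (0.10) or WT replicate 1 (0.11).

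In epithelium-like against progenitor-like cells (27.7% of all genes higher and 27.0% lower), feedback inhibitors were higher in 4 of 5, with Bambi at 2.34 and Smad6 at 1.70 on the log2 scale. Antagonists were higher in 4 of 6, with Bmper at 3.12 and Grem1 at 2.14, and Fst was lower (-3.32). Other ligand genes were higher in 3 of 4 and lower in 1, with Gdf6 at 5.75 and Bmp2 at 4.09. Of the receptors 2 were higher and 1 lower, with Acvr2a at 0.51 and Bmpr1b at -0.78, and of the SMAD genes Smad1 was higher (0.28), a call lost without Apcdd1+/- replicate 1 (0.25) or WT replicate 2 (0.21). Other targets split 3 and 2, with Tfap2a at 6.88 and Msx3 at -5.20, and the bHLH partners Tcf12 (-0.55) and Tcf3 (-0.22) were lower.

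Between dorsal and ventral progenitor-like cells (6.57% of all genes higher and 7.17% lower) Bmp5, the 1 other ligand gene tested, was higher dorsally (log2 difference 2.49, SE 0.50, edgeR adjusted p = 3.4e-04). Msx3 was higher by 5.34 (SE 0.29, edgeR adjusted p = 2.5e-17) and Gata2 was lower (-3.61, SE 0.44), with 2 other targets of 6 higher and 2 lower. Of 5 antagonists 2 were higher, Grem1 (1.37) and Chrdl1 (1.31). Bmpr2 (-0.39) was the 1 receptor called and Smurf1 (-0.39) the 1 feedback inhibitor, both lower, and no SMAD gene or bHLH partner was called. The Grem1 call was lost without Apcdd1+/- replicate 1 (1.42), WT replicate 1 (1.26) or WT replicate 2 (1.15), and the Smurf1 call without Apcdd1+/- replicate 1 (-0.35), WT replicate 2 (-0.33) or Apcdd1+/- replicate 2 (-0.41).

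The comparison of the labels asked whether the altered copy of Apcdd1 goes with a change in these genes. No gene was called in any class by edgeR, which is 0% of 8888 genes in roof plate-like, 14375 in progenitor-like, 12525 in mesenchyme-like and 10933 in epithelium-like cells. At an unadjusted p under 0.05 there were 260, 193, 198 and 376 genes. DESeq2 called 0 in each class and 3 over all cells. Leaving out 1 library leaves 1 against 2, with the spread taken from the other group and the lone library assumed to vary like it. Under that assumption the counts over all genes changed: without Apcdd1+/- replicate 2 they were 146 in progenitor-like and 222 over all cells, and without Apcdd1+/- replicate 1 they were 36 and 109. None of the 10 genes was called in any class under any of these settings. After the filter on low counts edgeR tested 9 of the 10 in roof plate-like, progenitor-like and mesenchyme-like cells and 8 in epithelium-like cells. A gene left untested could not be called, and some settings tested fewer. In simulated data, changed genes were drawn at 10 CPM or more and the spread between libraries was fixed, not taken from the fit. Of 2-fold changes there, 35.2% were recovered in roof plate-like and 92.0% in progenitor-like cells. Bmp4, Bmp6, Bmp7, Gdf7, Msx1 and Msx2 lay below that level in progenitor-like cells, and Gdf7 in roof plate-like cells. The shares do not cover genes below that level. Depth moved with the labels, the 2 WT libraries being the deeper ones, and its part in these comparisons was not tested.

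Of the 10 genes, 5 differed at an unadjusted p under 0.05 in a class, all with an edgeR adjusted p of 1.00. Id4 in roof plate-like cells was at 24.2 and 21.9 CPM in Apcdd1+/- and at 59.5 and 67.1 in WT (log2 difference -1.41, SE 0.33, edgeR unadjusted p = 3.8e-04), so that the labels did not overlap. In the same cells 4 of 8 immediate early genes, Fos, Jun, Egr1 and Dusp1, were below both WT libraries in both Apcdd1+/- libraries. Another 2, Junb and Atf3, were above both. The part of these genes was not tested. Bmp7 in the same cells was at 96.0 and 89.2 CPM against 56.8 and 68.2 (0.60, SE 0.26, edgeR unadjusted p = 0.0323). In mesenchyme-like cells Bmp6 (log2 difference -1.91), Msx2 (0.65) and Id1 (0.50) met that mark. Bmp6 rests there on 4 and 2 UMIs in Apcdd1+/- and 17 and 8 in WT, with its share of cells at the background. In progenitor-like and epithelium-like cells none did.

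In the report's fit the genotype difference of Id1 was not the same in mesenchyme-like as in progenitor-like cells, each class taken whole. In mesenchyme-like cells Id1 was at 49.1 and 60.8 CPM in Apcdd1+/- and at 35.8 and 42.8 in WT, and in progenitor-like cells at 26.1 and 24.6 against 33.4 and 31.3. Both Apcdd1+/- libraries lay above both WT libraries in the first class and below them in the second. The 2 log2 effects differed by 0.82 (SE 0.15, 95% interval 0.52 to 1.12, edgeR adjusted p = 0.0438), and Id1 was the 1 gene of 13622 called in this test (0.00734%). It was lost without WT replicate 1 (0.66, edgeR adjusted p = 0.268), without Apcdd1+/- replicate 2 (0.64, edgeR adjusted p = 0.676), at a wider lead of the gates (edgeR adjusted p = 0.0710) and with library size alone (edgeR adjusted p = 0.0904). Within mesenchyme-like cells the labels overlapped in Alx cells (35.2 and 43.1 CPM in Apcdd1+/-, 30.4 and 36.4 in WT). They did not in Dlx cells (132 and 122.5, 103 and 73.3) or in those with neither (43.2 and 71.5, 26.0 and 28.3). Among progenitor-like cells they overlapped in ventral cells (21.6 and 26.4, 22.6 and 21.2). So they did in cells of neither side (17.5 and 12.0, 18.5 and 16.8). In dorsal cells Apcdd1+/- lay below WT (38.7 and 38.4, 50.1 and 45.7). For roof plate and for epithelium against progenitor the difference of Id1 effects was -0.06 and 0.03. Those tests called 0 genes (0%) and 1 gene (0.00734%), the latter Tbx3, which is not among the 10 and was named after its value was seen.

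Immediate early genes were also compared between the labels in these classes. The sum of 8 of them was 564 and 759 CPM in the mesenchyme-like cells of Apcdd1+/- and 498 and 475 in those of WT, with Fos, Jun, Junb and Ier2 above both WT libraries in both Apcdd1+/- libraries. In progenitor-like cells the sum was 614 and 270 CPM against 687 and 566, with none of the 8 above both WT libraries and Egr1 below both. The part of these genes in the Id1 difference was not tested.

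**Figure D5:**
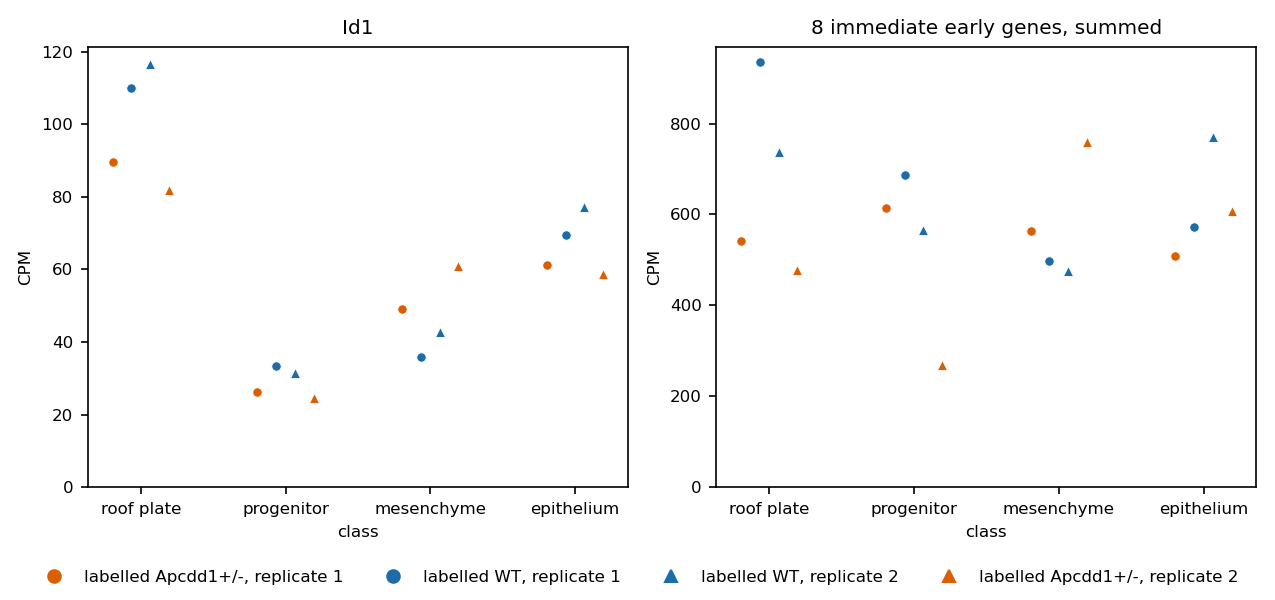
CPM of Id1 (left) and summed CPM of 8 immediate early genes in each class, with 1 point per library coloured by genotype label. In mesenchyme-like cells both Apcdd1+/- points lie above both WT points in the 2 panels, and in progenitor-like cells the Apcdd1+/- Id1 points lie below the WT points.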

How the data were processed

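Heads of E10.5 embryos were dissociated and sequenced as droplet libraries (DNBelab C kit, MGISEQ-2000), per the labels. The authors deposited matrices of raw UMI counts, genes by cells, made with PISA 0.12, per the file headers. The submitters' processing notes name mm10 and Scanpy 1.9.1 without a role. Which aligner, annotation or cell filter came before deposit was not stated in labels or headers.

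Groups came from the labels, 2 libraries per genotype. No column of per-sample values was left unused. Cells with at least 500 genes and under 10% mitochondrial counts were kept. A cell joined a broad class with a UMI of at least 3 of its 8 markers and more than 1.5 times the number of every other list. Roof plate-like cells had Lmx1a, at least 2 other roof plate markers and a neural gene, with no floor plate marker and no Epcam. None of the 10 genes was a marker. No doublet caller was run. The lead over other lists limits cells with 2 sets of markers in the broad classes. Roof plate-like cells could also come from cells in no broad class, so the lead need not have removed such cells there. An alternative left out the top 5% of UMI counts.

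Counts were summed per class and library and tested with edgeR 4.0.16 in R 4.3.3 (TMM, its filter on low counts, quasi-likelihood test, Benjamini-Hochberg threshold of 0.05 over all genes tested). CPM are shares of the summed counts per 1000000 without TMM. Over 33 values with at least 100 UMIs, the mean of counts scaled cell by cell was 0.940 to 1.13 times the summed value, and scarcer values differed more. DESeq2 1.42.0, the filter, the scaling, 4 alternative sets of cells, the library term and each library left out were tried as alternatives. The models were tested on simulated data with 200 changed genes, drawn from those of higher level, and with a fixed spread between libraries. For roof plate against progenitor 91.5% of 2-fold changes were recovered among 12348 genes. The count of UMIs limits scarce genes such as Gdf7. Floors and limits of shares cover counting error only. Intervals of log2 differences come from the edgeR fit and hold the spread between libraries that its terms leave. Genes absent from a library's list were set to 0.

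The 10 genes, the marker lists and the pathway lists were chosen with earlier results of these data known. Named were every one of the 10, per pathway list up to 3 called genes with the largest difference or else the gene of highest mean CPM, and the 3 genes of most like pattern per member, of which 2 are not reported here.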

Additional observations from a re-analysis of the deposited data

Results flagged for a closer look

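The genotype difference of Id1 was 0.821 higher on the log2 scale in mesenchyme-like than in progenitor-like cells (SE 0.15, edgeR adjusted p = 0.0438), and it was set apart because the test of the difference between the 2 classes passed its threshold. In mesenchyme-like cells Id1 was at 49.1 and 60.8 CPM in the libraries labelled Apcdd1+/- and at 35.8 and 42.8 in those labelled WT, and in progenitor-like cells at 26.1 and 24.6 against 33.4 and 31.3. Without WT replicate 1 and without Apcdd1+/- replicate 2 the value was 0.663 and 0.644 and was no longer called (edgeR adjusted p = 0.268 and 0.676). Over each library left out in turn it ran from 0.644 to 1.01. Within these classes the labels overlapped in Alx cells and in progenitor-like cells that were ventral or of neither side. They did not overlap in Dlx cells, other mesenchyme-like cells or dorsal progenitor-like cells. The part of the immediate early genes, and of the greater depth of the WT libraries, was not tested.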

How the results depend on the processing

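Across the alternatives, 1215 values of the class comparisons stayed on the same side of the threshold and in the same direction, 67 lost a call, 12 gained one and 14 turned their sign. In the subclass comparisons 281 stayed and 38 lost a call. The cause of these changes was not tested. Gates on cells thinned to 3000 UMIs leave only 16 to 22 roof plate-like cells per library. They leave 44.05% to 49.53% of a library's kept cells in no class. They called 1380 genes for roof plate against progenitor (3061 in the report's fit), 2988 against mesenchyme (5252), 2218 against epithelium (4044), 751 for dorsal against ventral (1639), 297 for Alx against Dlx (1411), 1005 for other against Dlx (4295) and 1081 for Alx against other mesenchyme (4013). Without a library term 1972 genes were called for roof plate against progenitor. Without 1 library, Alx against Dlx gave 918 to 1119 genes, the least without Apcdd1+/- replicate 1.

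These signs turned. On thinned gates Id2 was at -0.013 and Smad4 at -0.001 for roof plate against progenitor, Id2 at -0.021 and Id3 at -0.072 for epithelium against progenitor, and Msx2 at -0.179 for roof plate against mesenchyme. With a gate lead of more than 2 times Id3 was at -0.012 for epithelium against progenitor and Bmp7 at -0.068 for roof plate against epithelium. With no filter that Bmp7 value was -0.002. With library size alone Msx1 was at 0.022 for roof plate against mesenchyme and Smad4 at -0.074 for mesenchyme against progenitor. DESeq2 gave Gdf7 0.214 for epithelium against mesenchyme, where epithelium has 0 UMIs. With 1 library left out Id3 ran from -0.018 to 0.137 for epithelium against progenitor, Msx1 from -0.468 to 0.016 for roof plate against mesenchyme and Bmp7 from -0.096 to 0.126 for roof plate against epithelium. On thinned gates Msx2 for roof plate against progenitor was 2.26 and no longer called (edgeR adjusted p = 0.0632). There Msx1 for roof plate against mesenchyme was -0.972 and called (edgeR adjusted p = 0.00836).

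For the labels, DESeq2 called 3 genes over all cells. No filter called 3 over all cells, 7 in roof plate-like, 13 in progenitor-like, 13 in mesenchyme-like and 5 in epithelium-like cells. The wider lead and the thinned gates each called 1 in roof plate-like cells. Leaving out 1 library, with the lone library of its group assumed to vary like the other group, gave 0 to 222 genes over all cells, 3 to 11 in roof plate-like, 0 to 146 in progenitor-like, 2 to 43 in mesenchyme-like and 3 to 35 in epithelium-like cells. None of the 10 genes was among the calls of any of these settings. Where the filter on low counts left some of the 10 untested in a class, they could not be called. For the difference of genotype effects from progenitor, no filter called 13 genes for roof plate, 16 for mesenchyme and 7 for epithelium. Thinned gates called 1, 5 and 0, library size alone 0 for mesenchyme and 0 for epithelium, the gate of 4 markers 2 for mesenchyme and the wider lead 0 for mesenchyme. Leaving out 1 library called 1 to 24, 4 to 14 and 2 to 9 genes. The Id1 value was then 0.644 to 1.012, and it was 0.805, 0.697 and 0.840 with the wider lead, thinned gates and library size alone, none of them called.

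The labels number the libraries 1 and 2 in each genotype. Deviations of libraries with equal numbers correlated at 0.0469 to 0.245 over 5 sets of cells, and 2 pairs are too few to settle a pairing. With the replicate number as a block, 5 genes were called over all cells, 3 in roof plate-like, 1 in progenitor-like, 3 in mesenchyme-like and 0 in epithelium-like cells, none of them among the 10. Thinning cells to 5000 UMIs moved 32 of 40 shares of cells with a UMI by more than the spread between libraries.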
